A study of Arapaima gigas with 24 samples.

Results

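In the pirarucu, Arapaima gigas, 54 gene models had higher levels in all 3 females than in all 3 males in brain and in gonad. The mean difference was at least 0.3 on a log2 scale in each tissue, with levels taken relative to the sample's median gene model. With counts scaled to the sample total alone, 4 of the 54 separated the sexes in both tissues. The 54 are 0.245% of the 22016 gene models in the deposited table. The values that chose them were the sex differences themselves, so those differences are given here as a description and without a test. What the choice did not use directly was measured as well: the difference between gonad and brain, and the difference between the 2 libraries of each sample. All the fish entered the choice of the 54. The choice was therefore also repeated without single fish, and the sex difference of the gene models so chosen was measured in the fish left out.

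The samples were brain and gonad of 6 farmed fish, 3 females and 3 males, at least 4 years old and 100 to 120 cm long, caught in the breeding season. Males had been recognised by spermatozoa in the testis and females by primary oocytes in the ovary. No fish had been treated or carried a modified genome, so far as the labels say. Each tissue of each fish had 2 sequencing libraries, flc1 and flc2 in the titles, whose counts were summed to give 12 samples. The labels count 24 libraries but do not spell out what flc1 and flc2 stand for; they are taken here as 2 libraries of the same tissue of the same fish, and every library difference below rests on that.

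In bony fishes the adult brain makes estrogen locally through the enzyme aromatase, and steroids from the ovary and testis reach the brain through the blood. Sex differences are as a rule far larger between ovary and testis, which hold different germ cells, than between female and male brains. In these data the sizes were similar in brain and gonad. Over all 22016 gene models the female minus male log2 difference had quartiles of -0.14 and 0.13 in brain and -0.13 and 0.13 in gonad. The median pooled SD within groups was 0.13 in brain and 0.19 in gonad. Counts of calls depend on that spread as well as on size. At an adjusted p under 0.05 DESeq2 called 1358 of 22015 gene models between the sexes in brain and 28 of 22001 in gonad. edgeR called 0 in each, and 1 of 22015 between gonad and brain, where the median absolute log2 fold change was 0.085. Few gene models were thus called between brain and gonad, and the tissue names used here follow the labels. The cause of these counts was not tested. The files name each gene model by an identifier of the arowana annotation alone, so no function can be given for any of them, and the labelled tissues could not be checked against marker genes. Members are therefore called by their rank, from the largest to the smallest of their lower sex difference, and sequences are not shown. In bulk tissue, fewer cells of a type and less RNA per cell cannot be told apart.

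The level of a gene model is log2 of its CPM (counts scaled to the total of the sample) plus 0.5, minus the median over gene models in the same sample. The 220 gene models of highest mean CPM were left out, which left 21796. In brain all 3 females lay above all 3 males with a mean difference of at least 0.3 in 6.29% of these, in gonad in 2.06%, and in both in 0.248%, which are the 54 members. The same rule with the sexes exchanged found 105 gene models higher in males, or 0.482%. That balance depended on the scaling. Upper-quartile scaling gave 22 higher in females and 270 in males, and total counts alone gave 3 and 1837. With the trend of level on abundance removed from each sample the numbers were 48 and 34. Summed totals ran from 5689872 to 13142667 counts per sample.

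**Figure D1:**
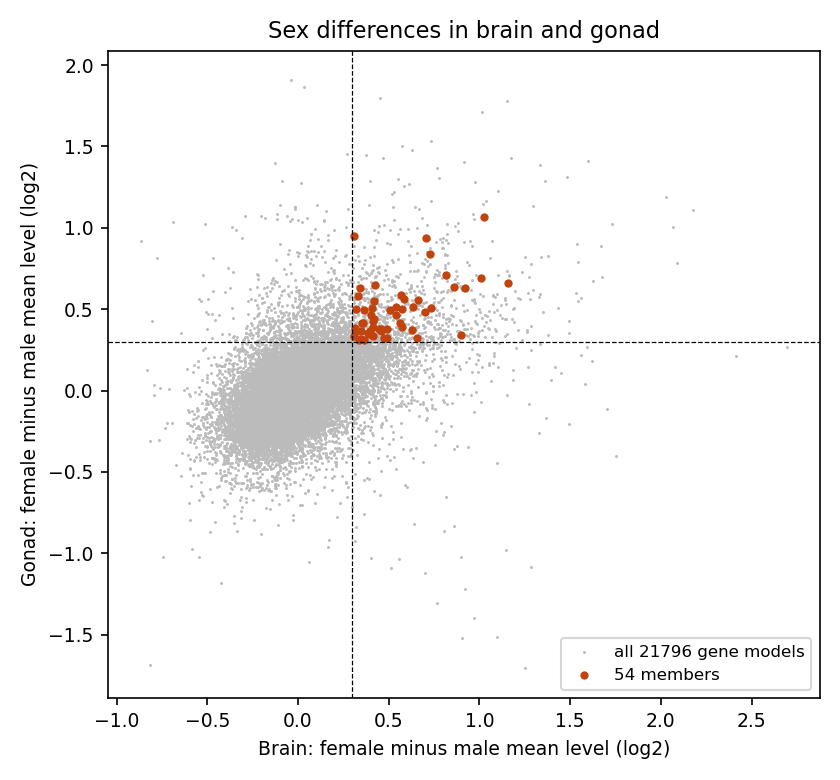
Female minus male difference of the mean level (log2) in brain (horizontal) and gonad (vertical) for 21796 gene models (grey) and the 54 members (red), with dashed lines at 0.3. Members lie above and to the right of both lines by construction, and 831 of the 885 gene models in that corner are no members because the sexes overlap in brain or gonad.

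Most of the differences were small. Over the 54 members the female minus male difference had a median of 0.46 in brain (quartiles 0.37 and 0.63, highest 1.16) and 0.45 in gonad (quartiles 0.37 and 0.56, highest 1.07), equal to 1.37-fold in each tissue. The medians over all 21796 gene models were -0.03 and -0.01. Only 3 members reached 2-fold in brain and 1 in gonad, and 15 had a difference of at least 0.5 in both. The difference was larger in brain for 33 members and larger in gonad for 21.

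Member 1, with the largest lower difference, had brain levels of 2.63, 3.81 and 2.54 in females 1, 2 and 3, against 2.27, 1.35 and 2.29 in males 1, 2 and 3. In gonad the females stood at 3.14, 3.43 and 2.62, the males at 2.24, 1.71 and 2.04. All 6 female samples lay above all 6 male samples, with female 2 highest and male 2 lowest in both tissues. The difference was 1.03 (SE 0.51) in brain and 1.07 (SE 0.28) in gonad, SE being that of a difference between means of 3 fish. It was the only member at least 2-fold higher in both tissues.

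Member 2 measured 2.68, 3.54 and 2.45 in the brains of females 1 to 3, against 2.13, 1.98 and 2.37 in those of males 1 to 3. Its levels were 3.84, 3.11 and 2.96 in the ovaries and 2.68, 2.08 and 2.63 in the testes. The groups were separate inside each tissue, but the lowest female brain lay below the highest testis. The differences were 0.73 (SE 0.35) and 0.84 (SE 0.33).

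Member 6 had the largest brain difference of all members, 1.16 (SE 0.28). Female brains were at 2.98, 3.50 and 2.69, male brains at 1.75, 1.75 and 2.20. In gonad the 3 females were close together, at 3.05, 3.13 and 3.07, whereas the males were spread out, at 2.74, 1.63 and 2.90. Male 2 was far below the other testes, and the lowest ovary was 0.14 above the highest testis.

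In several other members 1 female stood far above the rest. Member 7 had brain levels of 1.04, 3.02 and 1.18 in females, and member 4 had 0.75, 1.96 and 0.71. The lowest female brain exceeded the highest male brain by 0.03 in each of them. In member 4 female 2 was also far ahead in gonad, at 2.06 against 0.69 and 0.91 in the other females. By contrast, the female brains of member 11 lay between 1.85 and 1.89, all above the males at 0.93 to 1.44.

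The remaining members of the first 10 had differences of 0.57 to 1.01 in brain and 0.56 to 0.71 in gonad. Member 5 was high in 2 of 3 female brains, at 2.51, 3.43 and 3.40, against 2.41, 1.77 and 2.14 in the male brains. Member 8 had the widest brain gap of all 54, 0.56 between the lowest female and the highest male, but a gonad gap of 0.02. Member 3 showed the reverse, with gaps of 0.09 in brain and 0.37 in gonad. Members 9 and 10 separated the sexes by 0.03 to 0.25 at lower abundance, with mean levels of 28.0 and 12.3 CPM.

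**Figure D2:**
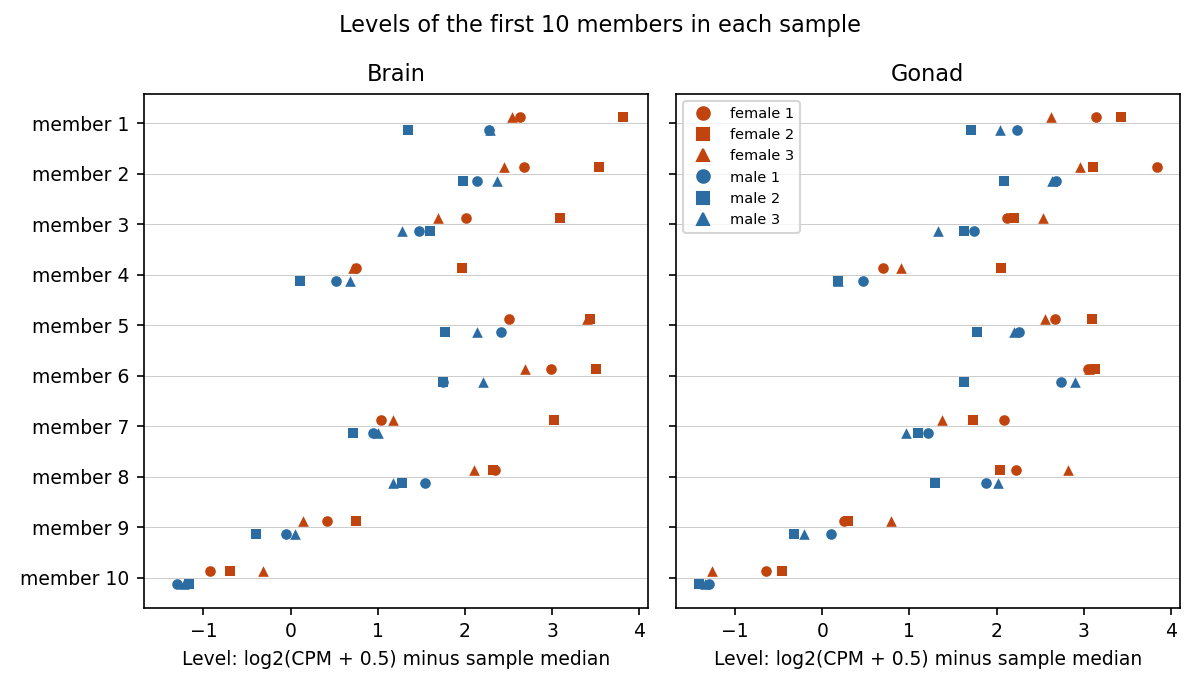
Level (log2 CPM + 0.5 minus the sample median) of the first 10 members in each brain sample (left) and gonad sample (right), females in red and males in blue, with 1 marker shape per fish number. The female points of a member lie to the right of its male points in each panel; the gap is as small as 0.02, in the gonad of member 8.

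Across all 54 members the gap between the lowest female and the highest male had a median of 0.14 in brain and 0.10 in gonad. The smallest gaps were 0.01 in brain and 0.0024 in gonad, both in member 20. Just outside that limit, a gene model with differences of 0.59 and 0.53 was left out because its gonads overlapped, with a gap of -0.00080. Just inside the limit on size, members 52, 53 and 54 had lower differences of 0.31 each, and the nearest gene models outside had 0.29, 0.29 and 0.28. A further 4 gene models met the other conditions but belonged to the 220 most abundant, with abundance ranks 70 to 215 and lower differences of 0.30 to 0.54. In 19 of the 54 members every female sample of either tissue lay above every male sample of either tissue. This held for 40 of the 21796 gene models (0.184%), all of them among the 124 with no overlap in both tissues. The rule already asked for separation inside each tissue, so nothing is read from the count of 19.

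The members covered a wide range of abundance, from 3.58 to 261 CPM on average. Their median was 51.0 CPM, where it was 24.8 for the 21796 gene models and 9.40 for the 105 gene models higher in males. Of the 54, 26 belonged to the most abundant quintile of gene models and 5 to the least abundant. The 5 most abundant were members 20, 35, 53, 41 and 2, at 172 to 261 CPM, with brain differences of 0.31 to 0.90. The 5 least abundant were members 30, 39, 42, 22 and 54, from 3.58 CPM upwards. Their counts were between 15 and 216 in single samples, so that counting error weighs in them. All 54 had at least 10 counts in every sample.

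The 220 gene models of highest mean CPM held a share of each sample's counts that was also higher on average in females, at 22.2 ± 4.53% in female and 12.9 ± 1.65% in male brains and 23.4 ± 2.63% in ovaries and 18.2 ± 4.37% in testes (SD, n = 3 each). The median gene model correspondingly stood at 20.6 to 25.5 CPM in female brains and 27.3 to 29.1 CPM in male brains. Dividing each sample by its median raises female levels relative to plain CPM. In plain CPM the sexes were separate in brain in 8 of the 54 members, in gonad in 21, and in both in 4. Of all 21796 gene models 1.66%, 0.486% and 0.0184% were separate in this way, a contrast that the rule used in another scaling. When the trend of level on abundance was removed from each sample, 48 gene models met the rule, 32 of them members, and all 54 kept a positive difference in both tissues.

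How often each fish was the extreme of its group was counted in the members and in all gene models. The shares of the 3 fish add up to the whole, so at least 1 exceeds its usual share unless all are equal. The counts are a description only. Female 2 had the highest of the female brain levels in 39 members, where it did so in 31.8% of the 21796 gene models. Female 3, whose brain had the smallest total count, was the lowest in 30, against 33.0%. In the testes male 2 was lowest in 38 members, against 33.6%, and in male brains it was lowest in 28, against 32.8%. In the ovaries the extremes were other fish: females 1, 2 and 3 were highest in 12, 18 and 24 members and lowest in 25, 14 and 15. Over all gene models they were highest in 33.8%, 27.9% and 38.3% and lowest in 35.4%, 29.4% and 35.1%. Female 3 was thus most often highest in ovary in the members as in all gene models. In the members she was also most often lowest in brain. In the share held by the 220 top gene models, male 2 was also the lowest of both male groups, at 11.4% in brain and 13.2% in gonad, and female 2 the highest of both female groups, at 26.5% and 26.4%. The part of these shares in the order of the fish was not tested.

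**Figure D3:**
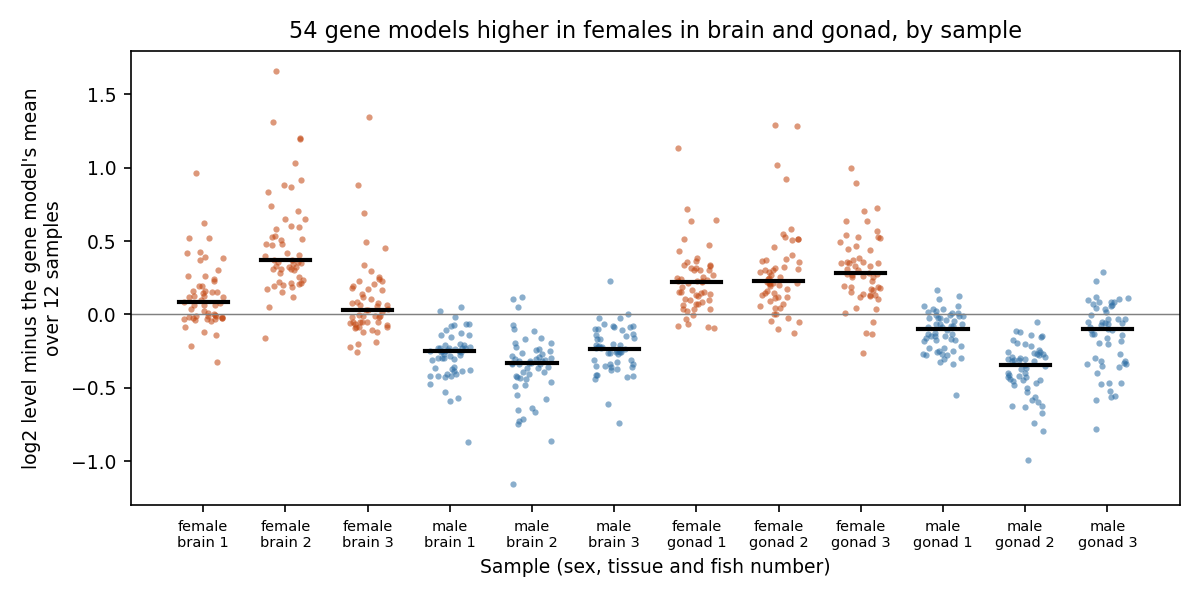
Level of each of the 54 members in each of the 12 samples, minus its mean over the 12 samples (log2), females in red and males in blue, with a black bar at the median. Female brain 2 has the highest bar, and the bars of male 2 are the lowest in brain and in gonad.

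The members moved together within the groups. After each group's mean was subtracted, the mean correlation between pairs of members over the 12 samples was 0.28. Between pairs of all 21796 gene models it was 0.0038, a value that centring each sample on its median keeps near 0. Sets of like abundance were not compared. A single component held 45.5% of that variation, with 48 of 54 members on its positive side and female brain 2 as its most extreme sample. The members share samples, libraries and the condition by which they were chosen, so these correlations describe the set only. Across members, the deviations of brain and gonad of the same fish correlated at 0.26 in female 2 and 0.36 in male 2. The other fish had values between -0.13 and 0.20. Across all 21796 gene models the values were 0.30 in female 2, 0.06 in male 2 and between -0.14 and 0.03 in the other fish.

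The difference between gonad and brain was not used in choosing the members. Over the 12 samples, edgeR's quasi-likelihood test gave a gonad minus brain log2 fold change above 0 in 38 of the 54 members and below 0 in 16. Their median was 0.07, against 0.0052 for all gene models, of which 51.7% were above 0. Single females moved these values: without female 3 the split was 29 to 25 with a median of 0.01, and without female 2 it was 43 to 11 with a median of 0.16. With total counts alone as scaling the direction turned: 18 of the 54 were higher in gonad, with a median of -0.05, and the median of all gene models was -0.11. At an adjusted p under 0.05 edgeR called 0 of the 54 and 1 of all 22015 gene models, or 0.00454%. DESeq2 called 0.109% of gene models and limma-voom 0.00454%, with 0 members in each. With the fish as a replicate block edgeR called 0 gene models and listed 10 members at an unadjusted p under 0.05, against 5.74% of gene models.

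At an unadjusted p under 0.05 edgeR listed 9 of the 54 members, 5 higher and 4 lower in gonad, where it listed 6.63% of all gene models, 3.55% higher and 3.08% lower. Without female 2 the number was 20, against 1475 of 22015 gene models, and without single other fish 6 to 11, against 777 to 1887. Member 41 had the lowest log2 fold change, -0.61 (SE 0.18, edgeR adjusted p = 0.710). It was at 248, 177 and 411 CPM in female brains and 146, 132 and 141 CPM in ovaries, so that the brain was higher in each female. The highest values were 0.37 (SE 0.15) in member 40, 0.36 (SE 0.22) in member 2 and 0.32 (SE 0.09) in member 37, with edgeR adjusted p of 0.710, 0.729 and 0.710. Members 30 and 13 had -0.39 (SE 0.13) and -0.35 (SE 0.16).

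The tissues were also compared within each sex. In females 32 of the 54 members were higher in gonad, with a median log2 fold change of 0.03, and in males 42, with a median of 0.09. With total counts alone the numbers were 24 and 18. In females the direction rested on single fish, with 21 of 54 higher in gonad and a median of -0.05 without female 3, and 43 of 54 and a median of 0.25 without female 2. Over all gene models 52.3% and 52.8% were higher. edgeR called 0 gene models in either sex, with 5 members in females and 2 in males at an unadjusted p under 0.05, against 3.22% and 4.42% of all gene models. DESeq2 called 11 of 22006 gene models in females and 32 of 22015 (0.145%) in males, with 0 members in each. The 6 fish were unanimous for 4 members higher in gonad (25, 37, 40 and 49) and 2 higher in brain (17 and 30), or 7.41% and 3.70% of members, against 1.52% and 2.56% of all 21796 gene models.

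The rule summed the 2 libraries of a sample and did not use their difference. The choice is still not independent of it, since a sum follows the library that holds most of the counts. The shares below are a description only. The flc1 minus flc2 level, taken as the median over the 12 samples, reached 0.3 in size in 16 of the 54 members, against 3.30% of all 21796 gene models and 5.88% of the 4184 in the most abundant quintile. It reached 0.5 in 9 members, against 0.697%. The level was higher in flc1 by at least 0.3 in 13 members, or 24.1%, against 1.46% of all gene models. Among those past 0.3 in size it was higher in flc1 in 13 of 16 members and in 319 of 719 gene models. Of the 105 gene models higher in males 5 reached 0.3 in size.

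Member 1 had the largest library difference of all 21796 gene models. Its flc1 level was 2.98 higher in the median sample, or 7.87-fold, and 2.12 to 4.15 higher over the 12 samples. Female 2's brain, for example, held 2995 counts in flc1 and 184 in flc2. In flc1 the sexes were separate in both tissues, with differences of 1.10 and 1.13. In flc2 the difference was 0.69 in brain and 0.38 in gonad, and the gonads overlapped by 0.55.

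Other members early in the ranking also differed between libraries. Member 8 was higher in flc1 by 1.14, member 12 by 1.03, member 16 by 0.98, member 15 by 0.66, member 9 by 0.58 and member 23 by 0.57, each in 12 of 12 samples. Members 3 and 5 were lower in flc1, by -0.68 and -0.52, also in all 12. In members 12 and 16 the sex difference was smaller in flc2, at 0.27 and 0.29 in brain and 0.13 and 0.18 in gonad, than in flc1, at 0.69 and 0.62 in brain and 0.70 and 0.64 in gonad. In members 3 and 5 the brain difference was larger in flc2, at 0.91 and 1.05, than in flc1, at 0.64 and 0.94.

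**Figure D4:**
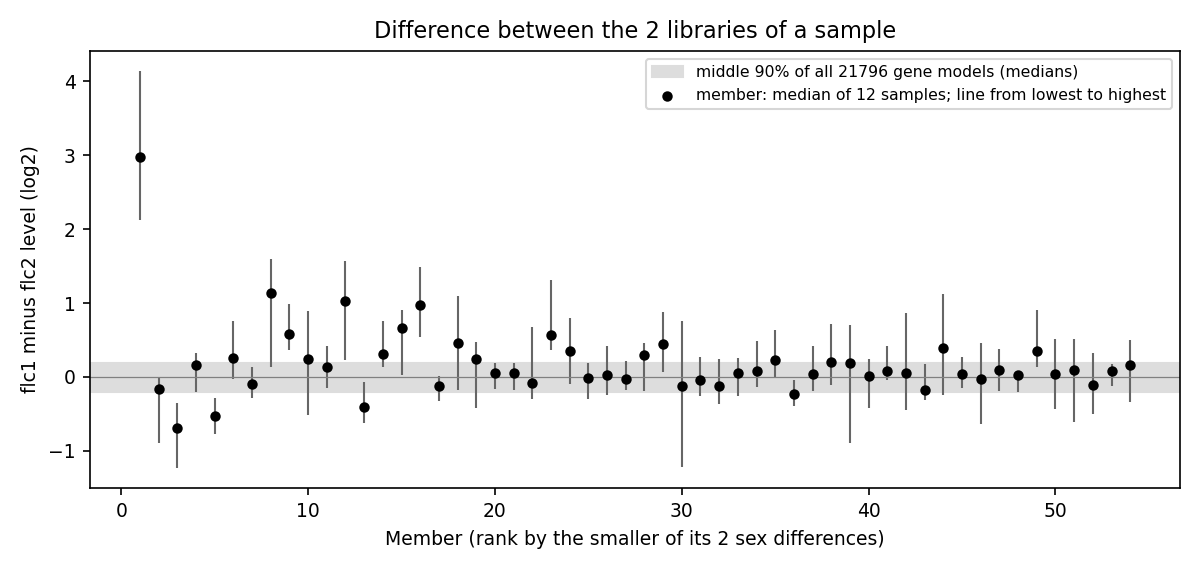
Level in library flc1 minus level in library flc2 (log2) for each member by rank, with the median over 12 samples as a point and a line from the lowest to the highest sample. Grey marks the 5th to 95th percentile of the medians of 21796 gene models, -0.20 to 0.19, and member 1 lies at 2.98.

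Taken singly, each library kept the direction in the members, since all 54 had positive differences in both tissues in flc1 and in flc2. Complete separation held in fewer. The sexes were apart in both tissues in 31 members in flc1 and in 22 in flc2, against 0.564% and 0.528% of all gene models, in 9 in each library alone and in 10 in neither. These numbers include the data that chose the members, so nothing is read from them. Chosen from flc1 alone, 61 gene models met the rule, and 9 of them separated the sexes in both tissues of flc2, against 0.528% of all gene models. Their median lower difference went from 0.44 in flc1 to 0.23 in flc2. In the opposite direction 59 were chosen in flc2, 8 were separate in flc1, against 0.564%, and the median went from 0.41 to 0.31. The 2 selections shared 7 gene models, 11.5% of the first and 11.9% of the second. Both libraries come from the same fish.

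Whether the sex difference carried over to other fish was examined by choosing gene models with 2 females and 2 males and comparing the left-out female with the left-out male, over all 9 pairs. These pairs overlap in fish and are not independent. Levels were centred on the sample median, which raises female levels relative to plain CPM. The count of pairs above 0 depends on that scaling, and plain CPM was not compared. In brain the median difference of the chosen gene models was above 0 in 9 of 9 pairs, from 0.10 to 0.70, where the medians of all 21796 gene models lay between -0.05 and 0.0033. The 3 pairs with female 2 left out gave the 3 highest values, 0.62, 0.52 and 0.70.

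In gonad the same comparison gave medians from -0.50 to 0.37, above 0 in 5 of 9 pairs. Male 2 was the left-out male in the 3 highest, 0.37, 0.34 and 0.23. With male 1 left out the medians were 0.04, 0.02 and -0.00080, and with male 3 they were -0.50, -0.35 and -0.02. The share of chosen gene models in which the left-out female was above the left-out male in both tissues had a median of 43.8% over the 9 pairs, with a range of 9.25% to 71.9%. Over all gene models the share was 17.8% to 32.2%, and the chosen share was the higher in 8 of 9 pairs. With the abundance trend removed it was higher in 6 of 9, and the brain medians stayed above 0 in 9 of 9. Between 25 and 50 of the 54 members were among the 61 to 1157 gene models chosen. Gene models chosen in the same way as higher in males were also compared, as left-out male minus left-out female. Their medians were above 0 in 9 of 9 pairs in brain and in 8 of 9 in gonad. Their share in the same direction in both tissues was above that of all gene models in 9 of 9.

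**Figure D5:**
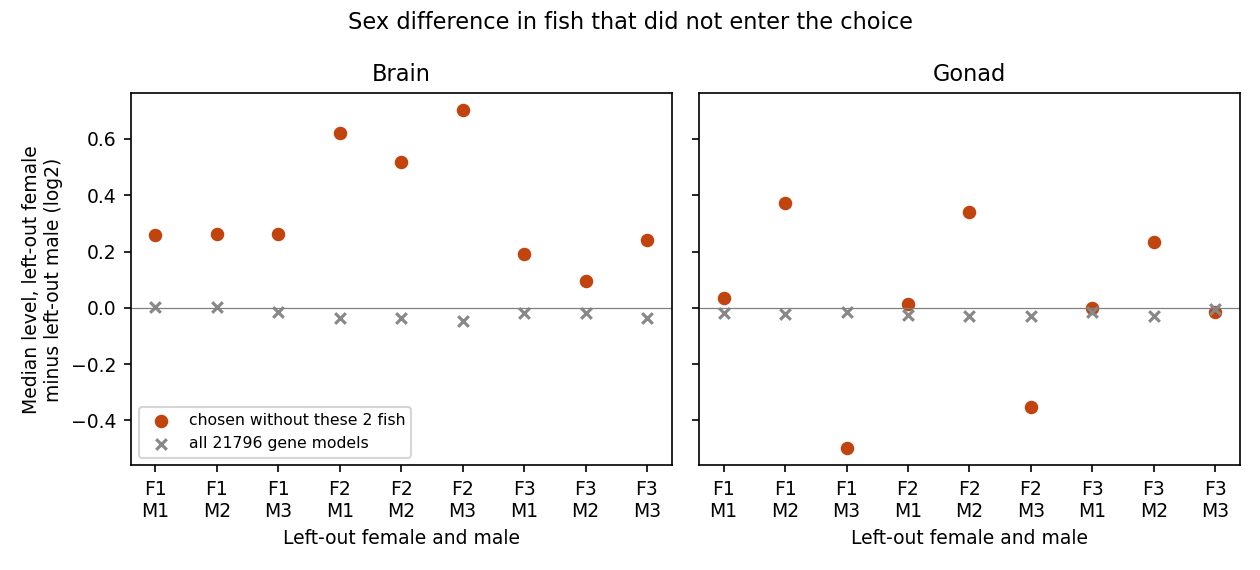
Median level of the left-out female minus that of the left-out male (log2), in brain (left) and gonad (right), for gene models chosen by the rule without these fish (red) and for all 21796 gene models (grey crosses). F and M with a number name the left-out fish; the red points are above 0 in 9 of 9 pairs in brain and in 5 of 9 in gonad.

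The profile of the members was shared by gene models outside the set. The 5 whose levels over the 12 samples correlated best with the median profile of the members had r of 0.92 to 0.97, where the members themselves ranged from 0.36 to 0.95 with a median of 0.86. The closest, at r = 0.97, had differences of 0.21 in brain and 0.22 in gonad and separated the sexes in both. It was outside the set because of the minimum of 0.3. Another of the 5 had 0.96 and 0.56 but overlapped by 0.19 in gonad. No 2 members had consecutive identifier numbers, and the smallest distance was 13. Other sets of gene models were not compared, so nothing is read from this spacing.

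edgeR called 0 of 22015 gene models between the sexes in brain and 0 of 22001 in gonad, with 4012 (18.2%) and 1283 (5.83%) at an unadjusted p under 0.05. DESeq2 called 1358 gene models in brain, or 6.17%, and 28 in gonad, or 0.127%. The rule used these contrasts, so the members' own values in them are not given.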

How the data were processed

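The authors deposited unnormalized whole-number counts of reads for each gene model in each library. Per the series design text the reads were placed on the Scleropages formosus genome, and the submitters' processing notes name Bowtie. That genome is of another species, so counts and abundance also depend on how well the reads match it. The part of that match was not tested. Counter, build, annotation and filters were not given in the sources used here. A gene model that shares sequence with a close copy, or overlaps one on the other strand, has uncertain counts. Read length was 50 nt and RNA integrity numbers were 8.0 to 8.5, per the labels. Nothing says which of the 6 lanes held a library.

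The 2 libraries from each tissue of a fish were added up to give 12 samples, 3 fish in each of 4 groups. Members and lists were chosen with earlier results of these data known. Fits used edgeR 4.0.16 in R 4.3.3 (TMM, default filter with minimum count 10 and total 15, quasi-likelihood F test, Benjamini-Hochberg), with DESeq2 1.42.0 and limma-voom 3.58.1 as alternatives. They were also run on simulated independent samples with planted differences larger than most of those here. That run does not show how the fits perform on differences of the size seen here. The members named were the first 10 by rank, the 5 most and the 5 least abundant, the 3 with the largest gonad minus brain change each way, those at the limits and the 5 gene models closest in profile, with others named after their values were seen. A number marks 1 fish in both tissues of its sex. Their deviations from group means correlated across gene models at -0.04, 0.30 and 0.03 in females and -0.06, 0.06 and -0.14 in males. The planned permutation test of the library difference was not run, because a p-value over chosen members would not be interpretable. The planned gene lists and markers could not be matched to the identifiers.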

Additional observations from a re-analysis of the deposited data

How the results depend on the processing

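The rule found 54 members, 22 with upper-quartile scaling and 3 with total counts alone, where the median lower difference of the 54 fell from 0.38 to 0.14. A minimum difference of 0.2 gave 93 and of 0.5 gave 15. TMM and RLE scaling, other pseudocounts, single libraries, no abundance limit and trend removal gave 46 to 69, but not always the same gene models. Of the 54 members, 30 were found again in flc1 alone, 20 in flc2 alone and 32 with trend removal, and 46 to 54 in the others of these settings. With 1 fish left out 55 to 682 met the rule, which is easier with 5 fish: 188, 55 and 193 on leaving out females 1, 2 and 3, and 206, 58 and 682 on leaving out males 1, 2 and 3. Among these were 51, 33 and 46 of the 54 members without females 1, 2 and 3, and 51, 34 and 46 without males 1, 2 and 3. The members' median lower difference with 1 fish left out was 0.33 to 0.43. As a mean over members, the library difference was 0.19 rather than 0.09. Between tissues in all fish edgeR called 1 gene model, 0 in either single library, 0 with the replicate block, 0 to 9 without 1 fish (9 without female 1), and DESeq2 called 24. Members at an unadjusted p under 0.05 in edgeR numbered 9, against 1460 of all 22015 gene models. With total counts there were 5, against 1978 of 22015, and in flc2 alone 4, against 1500 of 21978. In these settings the members' share was near that of all gene models. With the block there were 10, against 1264 of 22015, and without 1 fish 6 to 20, against 777 to 1887. DESeq2 called 11 in females and 32 in males, and without male 3 edgeR called 1 in males. Between the sexes edgeR called 0, DESeq2 1358 in brain and 28 in gonad and limma-voom 4 in brain. Without 1 fish edgeR called 0 to 575 in brain and 0 to 2 in gonad, the highest without female 1. The replicate block changed no other call; numbers do not pair females with males, whose deviations correlated at -0.14 to 0.26 for equal numbers. With 3 fish per sex, differences such as these cannot be told apart from differences between fish.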

Other observations

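Gene models that differed between the 2 libraries of a sample tended to be higher in females. This was examined after the library differences of the members had been seen. Of the 21796 gene models, 152 had a median flc1 minus flc2 level of at least 0.5 in size. Their female minus male difference had a median of 0.44 in brain and 0.39 in gonad, and it was above 0 in both tissues in 76.3% of them, against 30.9% of all gene models. Members made up 9 of the 152, or 5.92%. Gene models past 0.5 in size made up 1.74% of the 4184 in the most abundant quintile, against 0.697% of all 21796. Gene models of matched abundance were not compared. At a size of at least 0.3 there were 719 gene models, with medians of 0.24 and 0.21 and 65.0% above 0 in both tissues. In the members themselves the median flc1 minus flc2 level was above 0 in 12 of 12 samples, from 0.02 in male brain 2 to 0.21 in the ovary of female 1. Among the 13 members higher in flc1 by at least 0.3, the library difference was larger in the female than in the male samples in 11. The summed counts that chose these members weigh flc1 more, so the choice bears on this count and nothing is read from it. The part of the libraries in the sex differences was not tested.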
